A study of Mus musculus with 6 samples.

Results

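The genes described here are 36 genes of mitosis: G2/M cyclins and their kinase, spindle motors, kinetochore and checkpoint proteins, and factors of mitotic exit. They were chosen by name, with earlier results of these data known. Each of the 36 symbols matched 1 row of the 19844 genes in the expression table. The 36 genes also passed the filter for testing (a level of 1 FPKM in 3 or more libraries), as did 13247 genes in all. FPKM is fragments per kilobase of transcript scaled to the number of mapped fragments, a level corrected for gene length and sequencing depth.

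Poly-A RNA of distal colon was sequenced on day 17 of treatment with the carcinogen azoxymethane (AOM) and dextran sulfate sodium (DSS), which damages the colonic epithelium. The 6 mice were C57BL6, labelled female and treated alike: 3 were wild type and 3 were ChREBP knockouts, targeted in Mlxipl, the gene of a transcription factor that responds to glucose. The labels give neither the age, the doses nor the deleted part of the gene, and no untreated colon was analysed here. Against the label of sex, the Y-linked genes Ddx3y, Uty, Kdm5d and Eif2s3y lay between 5.67 and 30.75 FPKM over the 6 libraries, and Xist between 0.02 and 0.04. Mlxipl was at 5.84 to 7.49 FPKM in wild type and 3.40 to 5.66 in knockout, lowest in knockout replicate 1, so its transcript was still present. The value of 1 read in short genes put depth between 17575000 and 18400000 reads per library. The 6 epithelial markers Epcam, Cdh1, Krt8, Krt18, Krt19 and Vil1 summed to between 4649 and 5552 FPKM, so the labelled tissue's defining epithelium was present.

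Mitosis is driven by cyclin-dependent kinase 1 bound to cyclin A or B. Chromosomes attach to the spindle at kinetochores, unattached kinetochores hold the spindle checkpoint, and the anaphase promoting complex with Cdc20 then marks securin and cyclin B for destruction so that sister chromatids part. The transcripts of these proteins accumulate in G2 and M phase, and in colon they mark the dividing cells of the lower crypt as well as dividing immune and stromal cells. In bulk tissue, more dividing cells and more mitotic RNA per cell cannot be told apart.

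Mitosis genes were higher in the knockout mean than in the wild-type mean for 36 of 36 genes, by small amounts and unevenly among the 3 knockout mice. Fold changes are knockout minus wild type, as differences of log2(FPKM + 1). Their median was 0.21 over the 36 genes and 0.01 over all 13247 tested genes, of which 52.7% had a positive fold change. None of the 36 passed the test of genotype: limma called 0 of them at a Benjamini-Hochberg adjusted p under 0.05, against 0.0151% of all tested genes (2 genes). Adjusted p from limma was 0.999 for each of the 36. At an unadjusted p under 0.05 limma placed 6 of the 36 higher (Ccnb2, Ube2c, Cenpa, Ccnb1, Kif2c and Cenpe) and 0 lower, against 1.7% of tested genes in each direction. The 95% interval of the fold change held 0 for 30 of the 36 genes. It lay within 2-fold for all 36, as for 12846 of the 13247 tested genes, on a scale that compresses differences at low FPKM.

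Knockout replicate 1 was the highest of the 6 libraries for 31 of the 36 genes, as it was for 17.3% of all tested genes. Knockout replicate 2 was the highest for the other 5, Cdc25b, Nusap1, Cenpa, Ndc80 and Pttg1, against 25.7% of tested genes. The median mitosis gene stood at 1.46 times its wild-type mean in knockout replicate 1, 1.22 times in replicate 2 and 0.996 times in replicate 3. Among the wild-type mice the same medians were 1.07, 0.927 and 1.02 for replicates 1 to 3, and over all tested genes they lay between 0.988 and 1.02 in the 6 libraries. Thus 2 knockout mice stood above the wild-type range and the third lay inside it.

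The same libraries were also counted gene by gene. Because the genes varied together, these counts are not evidence separate from the medians. Knockout replicate 1 exceeded all 3 wild-type libraries in 35 of 36 genes (25.3% of tested genes), knockout replicate 2 in 28 (33.9%) and knockout replicate 3 in 6 (26.4%). Knockout replicate 3 lay within the wild-type range in 23 genes (49% of tested genes) and below it in 7 (24.6%). The order replicate 1 above 2 above 3 among the knockouts held for 28 of the 36, against 14.4% of tested genes. All 3 knockouts lay above all 3 wild types in 6 genes, Ccnb1, Ccnb2, Cenpe, Cenpf, Nuf2 and Ube2c, against 4.53% of tested genes. The reverse arrangement was found in 0 of the 36, against 4.14%.

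**Figure D1:**
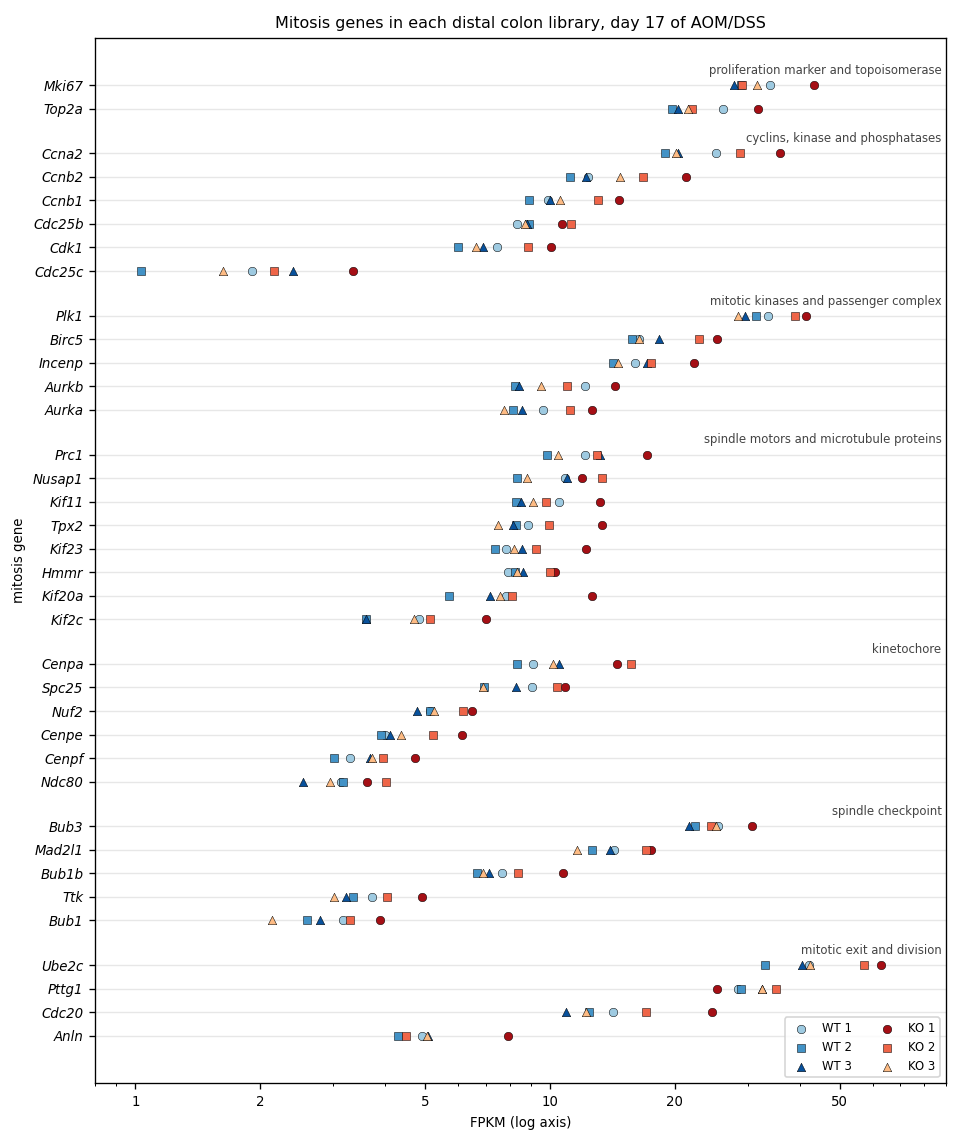
FPKM of the 36 mitosis genes on a log axis, 1 row per gene ordered by role, with 1 point for each of the 3 wild-type (WT, blue) and 3 ChREBP knockout (KO, red to orange) libraries. The darkest red point, knockout replicate 1, is the rightmost in 31 rows, and knockout replicate 3 lies among the blue points in most rows.

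Leaving out knockout replicate 1 lowered the median log2 fold change of the 36 genes from 0.21 to 0.12, with 34 of 36 still positive (54% of tested genes) and 1 at an unadjusted limma p under 0.05 (3.36%), Ccnb2. Without knockout replicate 3 the median was 0.35 and 20 genes had an unadjusted limma p under 0.05 and a positive fold change (2.31% of tested genes). That count was 1 without knockout replicate 2 (1.37%) and 1 without wild-type replicate 2 (1.36%). The adjusted count was 0 of 36 with any of the 6 libraries left out.

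**Figure D2:**
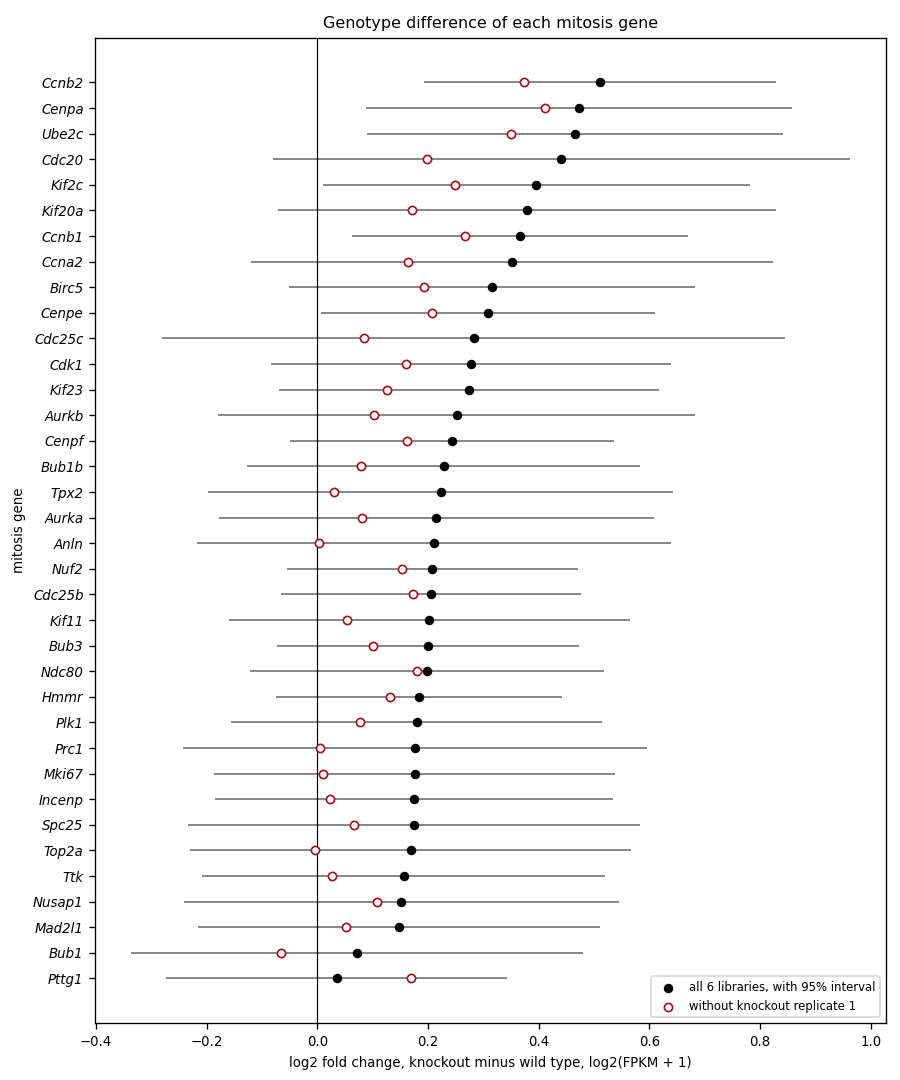
Genotype difference on the log2(FPKM + 1) scale (knockout minus wild type) of each mitosis gene in all 6 libraries (filled, with the 95% limma interval) and without knockout replicate 1 (open). Filled points lie between 0.03 and 0.51, and the open points lie to the left for 35 of the 36 genes, Pttg1 being the exception.

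Promoters of mitosis genes are known to carry CCAAT boxes, bound by NF-Y, and a cell cycle homology region of the letters TTTGAA or TTTAAA, bound by the DREAM and MuvB complexes. These sequences are shown to describe the members. RefSeq windows of GRCm38.p6, from 250 bases before to 50 after the start, were held for 30 of the 36 genes (not Ccna2, Cdc25c, Aurkb, Incenp, Kif20a or Tpx2) and were searched on both strands. TTTGAA or TTTAAA occurred in 24 of 30 (80%), against 22.9% of the 10463 tested genes with a window and 30.6% of all 27025 genes in that table. CCAAT occurred in 22 of 30 (73.3%), against 42.7% and 41.1%, and 2 or more matches in 15 (50%), against 16.4% and 13.3%. Both kinds of motif occurred in 20 of 30 (66.7%), against 9.2% and 12.2%. Among 29 genes of DNA replication with a window the shares were 62.1% for CCAAT and 31% for TTTGAA or TTTAAA. Windows with 0 matches were those of Mad2l1, Nuf2, Nusap1 and Pttg1. In Mad2l1, Nuf2 and Nusap1 knockout replicates 1 and 2 lay above all 3 wild types, and in Pttg1 only knockout replicate 2 did. Whether the motifs relate to these levels was not tested. A match is a description of the letters and not a measured binding site. The 250 bases before the start are printed 5′ to 3′ on the gene's strand for 5 genes with motifs and for Pttg1, with matches to these motifs on either strand in capitals:
Ccnb2 (chr9:70421555-70421804, minus strand): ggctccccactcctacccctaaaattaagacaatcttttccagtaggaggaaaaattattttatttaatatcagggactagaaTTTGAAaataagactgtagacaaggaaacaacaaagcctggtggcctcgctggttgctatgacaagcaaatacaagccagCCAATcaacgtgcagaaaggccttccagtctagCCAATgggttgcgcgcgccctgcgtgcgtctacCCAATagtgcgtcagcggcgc
Ccnb1 (chr13:100786487-100786736, minus strand): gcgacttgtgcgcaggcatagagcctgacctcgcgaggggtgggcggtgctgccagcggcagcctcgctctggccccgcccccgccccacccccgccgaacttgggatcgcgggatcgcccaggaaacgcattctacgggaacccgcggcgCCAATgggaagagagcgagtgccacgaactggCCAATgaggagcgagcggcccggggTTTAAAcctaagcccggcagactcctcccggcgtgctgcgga
Cdc20 (chr4:118437344-118437593, minus strand): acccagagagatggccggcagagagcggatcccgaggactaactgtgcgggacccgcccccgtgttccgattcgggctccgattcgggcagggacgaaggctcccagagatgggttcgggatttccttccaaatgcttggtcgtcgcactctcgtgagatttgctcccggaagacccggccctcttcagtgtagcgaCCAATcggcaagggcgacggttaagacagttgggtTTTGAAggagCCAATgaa
Ube2c (chr2:164769679-164769928, plus strand): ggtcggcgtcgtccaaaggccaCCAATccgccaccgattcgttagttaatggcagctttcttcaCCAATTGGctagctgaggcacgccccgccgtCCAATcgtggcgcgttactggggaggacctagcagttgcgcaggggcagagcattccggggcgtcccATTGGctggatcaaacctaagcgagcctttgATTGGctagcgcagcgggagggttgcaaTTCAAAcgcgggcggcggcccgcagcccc
Cenpa (chr5:30666636-30666885, plus strand): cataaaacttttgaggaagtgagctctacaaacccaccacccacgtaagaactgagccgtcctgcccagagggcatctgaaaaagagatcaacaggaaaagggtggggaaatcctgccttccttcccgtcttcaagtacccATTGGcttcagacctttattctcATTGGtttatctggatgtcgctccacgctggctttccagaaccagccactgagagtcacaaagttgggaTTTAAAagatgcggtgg
Pttg1 (chr11:43425982-43426231, minus strand): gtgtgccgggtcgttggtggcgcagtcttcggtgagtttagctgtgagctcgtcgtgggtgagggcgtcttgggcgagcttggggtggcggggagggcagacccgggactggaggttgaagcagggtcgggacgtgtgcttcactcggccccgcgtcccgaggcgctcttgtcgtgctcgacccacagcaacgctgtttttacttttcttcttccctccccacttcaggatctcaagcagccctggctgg

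In Ccnb2 the 3 CCAAT boxes began 87, 54 and 21 bases before the start, 33 bases apart each, and in Ccnb1 the pair at 99 and 67 bases was 32 apart, with TTTAAA at 42. Cdc20 had CCAAT at 53 and 8 bases before the start with TTTGAA at 18. Ube2c held 6 CCAAT matches, of which a forward and a reverse match overlap at 186 and 183 bases, and 1 TTTGAA on the reverse strand at 29. Cenpa carried 2 reverse CCAAT matches at 109 and 86 and TTTAAA at 17. Ccnb2 also had TTTGAA at 167 bases before the start. Past the start, in bases searched but not printed, TTTGAA began at base 5 in Ccnb2 and at base 17 in Cenpa.

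Cyclins and the kinase they bind come first, since they set entry into mitosis. Ccnb2, cyclin B2, read 12.32, 11.19 and 12.23 FPKM in wild-type replicates 1 to 3 and 21.24, 16.77 and 14.72 in knockout replicates 1 to 3. The groups did not overlap, and the lowest knockout was 2.40 FPKM above the highest wild type, the widest such gap of the 36 genes. Its means were 11.9 ± 0.628 (SD, n = 3) and 17.6 ± 3.33 FPKM, a log2 fold change of 0.51 (SE 0.14, 95% interval 0.19 to 0.83), and it had the smallest unadjusted limma p of the 36 genes (0.00613; adjusted p = 0.999). Without knockout replicate 1 the fold change was 0.37. Ccnb1, cyclin B1, read 9.90, 8.91 and 10 FPKM in wild type and 14.68, 13.02 and 10.58 in knockout, again without overlap but with replicate 3 only 0.58 FPKM above the highest wild type. Its log2 fold change was 0.37 (SE 0.13). RefSeq lists a pseudogene named after each of these 2 genes, and how reads were divided between copies is not given in the sources used here.

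Ccna2, cyclin A2, which acts from S phase into early mitosis, read 25.17, 18.91 and 20.37 FPKM in wild type and 35.95, 28.69 and 20.08 in knockout. Knockout replicate 3 lay within the wild-type range, so the groups overlapped (log2 fold change 0.35, SE 0.20). Cdk1, the kinase itself, read 7.43, 6 and 6.91 in wild type and 10.06, 8.84 and 6.63 in knockout, placed in the same way. The phosphatase gene Cdc25b, whose product activates the kinase, was between 8.33 and 8.91 FPKM in wild type and at 10.67, 11.25 and 8.72 in knockout. Cdc25c, a further activating phosphatase, was the lowest member: 1.91, 1.03 and 2.40 FPKM in wild type and 3.35, 2.16 and 1.63 in knockout. That is about 35 fragments in wild-type replicate 2 and 120 in knockout replicate 1, estimated from the longest coding transcript, and it spanned the widest fold range of the 36 genes, 3.25-fold between those libraries. For the 6 genes of this role the median stood at 1.60, 1.32 and 0.991 times the wild-type mean in knockout replicates 1 to 3.

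Mki67, which encodes the Ki-67 protein used to stain dividing cells, separated knockout replicate 1 alone. It read 33.97, 28.87 and 27.84 FPKM in wild type and 43.24, 29.09 and 31.63 in knockout. Top2a, the topoisomerase that untangles chromosomes, was alike at 26.16, 19.66 and 20.35 against 31.73, 22.06 and 21.56. In both genes knockout replicates 2 and 3 lay inside the wild-type range. Their log2 fold changes of 0.18 and 0.17 became 0.01 and -0.005 without knockout replicate 1. In knockout replicate 2 the cyclin B genes therefore stood at 1.36 times (Ccnb1) and 1.41 times (Ccnb2) the wild-type mean while Mki67 stood at 0.962 and Top2a at 1.0 times theirs.

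The mitotic kinases were placed much like Cdk1. Plk1, polo-like kinase 1, read 33.54, 31.41 and 29.60 FPKM in wild type and 41.36, 38.93 and 28.43 in knockout: replicates 1 and 2 lay above the wild types and replicate 3 below them. Aurka, the spindle pole kinase, followed the same arrangement at 9.60, 8.14 and 8.58 against 12.63, 11.18 and 7.74. The chromosomal passenger complex joins Aurkb with Birc5, also called survivin, and the scaffold Incenp. Aurkb read 12.16, 8.22 and 8.40 in wild type and 14.31, 10.96 and 9.51 in knockout, so that wild-type replicate 1 was higher than 2 of the knockouts. Birc5 read 16.43, 15.78 and 18.34 against 25.26, 22.92 and 16.36, with a log2 fold change of 0.32 (SE 0.16). Incenp ran from 14.15 to 17.13 in wild type and from 14.61 to 22.31 in knockout. The median over these 5 genes was 1.44, 1.23 and 0.927 times the wild-type mean in knockout replicates 1 to 3.

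Spindle motors and microtubule proteins were led by Kif2c, a microtubule depolymerase that corrects wrong attachments. Kif2c read 4.82, 3.59 and 3.60 FPKM in wild type and 7.02, 5.13 and 4.69 in knockout, a difference of 0.40 on the log2 scale (SE 0.17), with knockout replicate 3 just under wild-type replicate 1. Kif20a, a motor of the central spindle, read 7.83, 5.71 and 7.18 in wild type and 12.64, 8.10 and 7.59 in knockout, and most of its difference lay in replicate 1 at 1.83 times the wild-type mean. Kif23, a further motor of the central spindle, ran from 7.37 to 8.54 against 12.22, 9.26 and 8.18. Kif11, which pushes spindle poles apart, stood at 13.23 in knockout replicate 1 and between 8.29 and 10.51 in the other 5 libraries. Tpx2, an activator of Aurora A, was at 8.16 to 8.87 in wild type and at 13.37, 9.95 and 7.49 in knockout.

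The other 3 genes of this role were closer between the groups. Prc1, which bundles microtubules at the spindle midzone, was at 17.13 in knockout replicate 1 and between 9.81 and 13.19 elsewhere. Hmmr, a spindle assembly protein, had the narrowest fold range of the 36 genes, from 7.93 FPKM in wild-type replicate 1 to 10.30 in knockout replicate 1, or 1.30-fold. Nusap1 was highest in knockout replicate 2 (13.36) with 11.97 in replicate 1 and 8.78 in replicate 3, against 8.32 to 11.01 in wild type. No library other than knockout replicates 1 and 2 was the highest for any of the 8 genes.

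At the kinetochore, Cenpa, the histone H3 variant that marks centromeres, had the second highest fold change of the 36 genes. It read 9.11, 8.31 and 10.49 FPKM in wild type and 14.54, 15.67 and 10.17 in knockout, a difference of 0.47 on the log2 scale (SE 0.17). Knockout replicates 1 and 2 lay well above the wild types and replicate 3 within them, and without replicate 1 the fold change was still 0.41. Cenpe, a kinetochore motor, read 4.01, 3.91 and 4.12 in wild type and 6.13, 5.23 and 4.38 in knockout. Those groups did not overlap, with a wild-type SD of 0.105 (log2 fold change 0.31, SE 0.13).

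Cenpf, a large coiled-coil kinetochore protein, and Nuf2, of the Ndc80 complex that grips microtubules, also had groups that did not overlap, but by 0.04 and 0.12 FPKM. Cenpf was between 3.01 and 3.68 in wild type and at 4.72, 3.95 and 3.72 in knockout, and it overlapped once the libraries were rescaled by their median ratio, which left 5 such genes of the 36. Nuf2 was between 4.79 and 5.14 in wild type and at 6.49, 6.16 and 5.26 in knockout. Its complex partners overlapped: Ndc80 was at 3.14, 3.16 and 2.53 against 3.62, 4.03 and 2.95, and Spc25 at 9.05, 6.93 and 8.28 against 10.84, 10.39 and 6.88. Over the 6 kinetochore genes the median was 1.38, 1.29 and 1.07 times the wild-type mean in knockout replicates 1 to 3.

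Spindle checkpoint genes had the smallest median log2 fold change of the roles with more than 2 genes, 0.16. Bub1, a checkpoint kinase, read 3.17, 2.60 and 2.78 FPKM in wild type and 3.89, 3.29 and 2.14 in knockout, which placed knockout replicate 3 lowest of the 6 and gave a fold change of 0.07 that turned to -0.07 without replicate 1. Mad2l1, which with Bub1b and Bub3 forms the complex that restrains Cdc20, read 14.27, 12.60 and 13.94 against 17.49, 17.09 and 11.63. Ttk, the kinase that starts the checkpoint signal, was also lowest in knockout replicate 3 at 3.02, with 3.22 to 3.72 in wild type and 4.91 in knockout replicate 1. Bub1b read 7.68, 6.67 and 7.11 in wild type and 10.72, 8.36 and 6.91 in knockout. Bub3, which also takes part outside mitosis, was at 21.66 to 25.43 in wild type and at 30.74, 24.47 and 25.19 in knockout.

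The factors of mitotic exit held the most abundant member. They also held the only member in which knockout replicate 1 did not exceed all the wild types, Pttg1. Ube2c, the ubiquitin-conjugating enzyme of the anaphase promoting complex, read 42.23, 32.96 and 40.63 FPKM in wild type and 62.94, 57.05 and 42.39 in knockout. Knockout replicates 1 and 2 stood well above the wild types, and replicate 3 was 0.16 FPKM above wild-type replicate 1 (log2 fold change 0.47, SE 0.16). Cdc20, the activator of that complex, read 14.21, 12.44 and 10.92 in wild type and 24.61, 17 and 12.23 in knockout. At 1.97 times the wild-type mean, Cdc20 was the farthest above it of the 36 genes in knockout replicate 1, yet its fold change of 0.44 had an SE of 0.23. Anln, an actin-binding protein of the cleavage furrow, stood at 7.90 in knockout replicate 1 and between 4.31 and 5.07 in the other 5 libraries.

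Pttg1, which encodes securin, the inhibitor of separase, did not follow the other members. It read 28.40, 28.92 and 32.48 FPKM in wild type and 25.25, 35.09 and 32.42 in knockout. Knockout replicate 1, the highest library for 31 members, was the lowest for Pttg1, at 0.844 times the wild-type mean. Its log2 fold change was 0.03 (SE 0.13, 95% interval -0.27 to 0.34) and turned negative when wild-type replicate 1 or either of the knockouts 2 and 3 was left out. Across the 6 libraries the median Pearson r of a member's log2 level with the other members was 0.82 over 630 pairs, and that of Pttg1 was -0.37. These coefficients are a description over 6 libraries shared by all the genes.

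**Figure D3:**
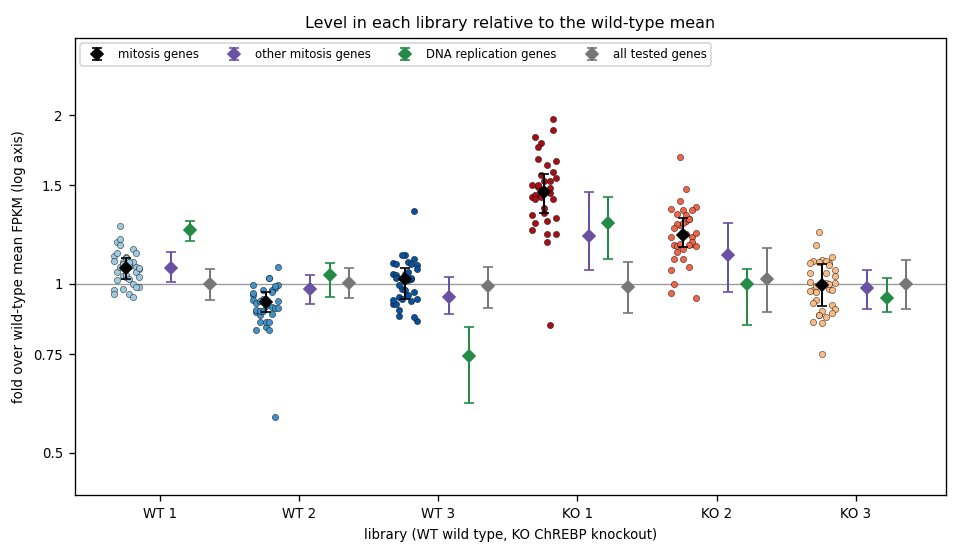
Fold of each gene over its wild-type mean FPKM (log axis) in each library: circles are the 36 mitosis genes, and diamonds with bars are medians with quartiles of the mitosis genes (black), 112 other mitosis genes (purple), 37 DNA replication genes (green) and all 13247 tested genes (grey). The black medians read 1.46, 1.22 and 0.996 in the knockouts, the low point in knockout replicate 1 is Pttg1, and the green median of wild-type replicate 3 is 0.744.

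A wider list of 112 other mitosis genes, assembled by function, was placed likewise but nearer to the wild type. Of the 112, 83 were positive and 29 negative in fold change (median 0.13), and limma called 0 at an adjusted p under 0.05. At an unadjusted p under 0.05 limma placed 7 higher and 0 lower, against 1.7% of tested genes in each direction. All 3 knockouts lay above all 3 wild types in 12 of the 112 (4.53% of tested genes) and below them in 3 (4.14%). Their median was 1.22, 1.13 and 0.986 times the wild-type mean in knockout replicates 1 to 3. Spindle and cytokinesis genes leaned most, with 21 of 22 positive and a median of 0.24. Ect2, which activates the contractile ring, read 5.67, 5.21 and 6.28 FPKM in wild type and 9.35, 6.74 and 7.35 in knockout, without overlap. Kif14, a motor of cytokinesis, read 1.23, 1.28 and 1.16 against 2.24, 1.74 and 1.52, also without overlap. Both genes are named for having the smallest p of their list, a choice that favours groups without overlap. Among 30 further kinetochore and centromere genes 25 were positive (median 0.14), with Cenpq at 3.45 ± 0.828 and 4.85 ± 0.371 FPKM and Oip5, which helps to load Cenpa, at 1.70 ± 0.165 and 2.58 ± 0.641.

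Entry kinases and cyclins were positive in 8 of 11 (median 0.14), with wild-type and knockout means of 4.84 ± 0.743 and 6.61 ± 1.24 FPKM for Ccnf and of 5.30 ± 0.873 and 7.15 ± 1.51 for Nek2, a centrosome kinase. Genes of the anaphase promoting complex and its regulators were split, 10 positive and 7 negative with a median of 0.01. Its subunit Anapc11 was at 9.31 ± 0.762 and 11.1 ± 1.25, and Espl1, the separase that Pttg1 restrains, read 2.35, 2.03 and 2.30 against 3.49, 2.86 and 2.27. Cohesin and condensin genes had 12 positive and 7 negative (median 0.11), and the cohesin release factor Wapl was at 21.8 ± 2.07 and 18.8 ± 1.65 while the centromeric cohesin protector Sgo1 was at 2.80 ± 0.405 and 3.55 ± 0.450. Regulators of mitosis gene transcription had 7 positive and 6 negative (median 0.01). Mybl2, the B-Myb factor, read 3.29, 2.74 and 1.81 in wild type and 4.45, 3.88 and 2.62 in knockout, and Foxm1 read 7.31, 6.52 and 5.97 against 9.61, 8.18 and 5.80.

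DNA replication genes, expressed in S phase just before, were ordered differently over the libraries, a contrast that was not tested. Of 37 genes 28 were positive with a median of 0.12, and limma called 0 at an adjusted p under 0.05 and 0 at an unadjusted p under 0.05. Their median was 1.28, 1.001 and 0.945 times the wild-type mean in knockout replicates 1 to 3 and 1.25, 1.04 and 0.744 times in wild-type replicates 1 to 3. Thus wild-type replicate 1 stood about as high as knockout replicate 1, and wild-type replicate 3 was the lowest library for 27 of the 37. Without wild-type replicate 3 the positive count was 11 of 37. Gins4 was at 12.1 ± 1.08 and 13.99 ± 1.92 FPKM, Rfc5 at 7.40 ± 1.77 and 8.88 ± 2.04, and Ccne2, cyclin E2, at 3.48 ± 0.907 and 2.69 ± 0.893 in wild type and knockout.

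The summed FPKM of the 36 mitosis genes was 461, 397 and 431 in wild-type replicates 1 to 3 and 619, 528 and 431 in knockout replicates 1 to 3. That sum divided by the summed replication genes was 1.06, 1.07 and 1.61 in wild type and 1.36, 1.51 and 1.22 in knockout. The ratio was highest in wild-type replicate 3 and overlapped between the groups.

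Markers of cell types of the colon, whether or not those cells divide, were read in the same libraries. In knockout replicate 1, the library with the highest mitosis genes, the 6 epithelial markers summed to 5552 FPKM, the highest of the 6. The sums ranged from 4649 to 5170 in wild type and from 4767 to 5552 in knockout. Of these markers only Epcam and Krt8 were highest in knockout replicate 1, while Cdh1, Krt18, Krt19 and Vil1 were highest in other libraries. The 5 absorptive colonocyte markers summed to 1971 FPKM in knockout replicate 1, the lowest of the 6, against 2115 to 3113 in wild type. The 5 did not move together. Car4, Slc26a3 and Aqp8 were lowest of the 6 in that library, and Car1 (613.36 FPKM) lay within the wild-type range. Krt20 was at its highest in knockout replicate 1, at 488.76 FPKM against 365.53 to 427.64 in wild type. The 5 neutrophil markers summed to 17.9 FPKM in that library, 5.8 to 7.5 in wild type and 6.3 and 8.6 in the other knockouts. Within that list S100a8 was at 6.04 FPKM in that library against 0.77 to 1.10 in wild type, and S100a9 at 6.55 against 0.88 to 1.35. The receptor genes Csf3r and Cxcr2 were at 2.51 against 1.60 to 1.93 and at 2.74 against 2.24 to 3.43, and Mpo lay between 0.06 and 0.16 in the 6 libraries. No marker in the 13 lists was listed at 0 throughout. In knockout replicate 1 the summed macrophage markers were lowest (119 FPKM) and the summed endothelial markers highest (45.1 FPKM). Of the macrophage markers, C1qa, C1qb and Cd68 were lowest there, but Csf1r was lowest in knockout replicate 3 and Adgre1 in wild-type replicate 2.

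B cell markers summed to between 22.3 and 124 FPKM in wild type and between 56.0 and 82.3 in knockout, and germinal centre markers to 5.2 to 13.4 and 5.6 to 8.2, so in both lists the knockouts lay inside the wild-type range. T cell markers were at 7.6 to 10.6 and 5.9 to 9.3, macrophage markers at 144 to 203 and 119 to 213, and fibroblast markers at 487 to 631 and 538 to 590. Crypt stem cell markers summed to 31.9 to 39.7 in wild type and 30.9 to 31.3 in knockout. That sum lay below the wild types in each of the 3 knockouts. Of its 4 genes only Ascl2 did so, at 3.14 to 3.78 FPKM against 4.49 to 5.95, an arrangement found in 4.14% of tested genes. Lgr5, Smoc2 and Axin2 overlapped between the groups, Lgr5 narrowly at 1.86 to 3.30 FPKM in wild type and 1.66 to 1.87 in knockout. The fold change was negative for all 4 genes, as for 6261 of the 13247 tested genes. Limma called 0 of the 4 at an adjusted p under 0.05. Goblet cell (6857 to 12008 FPKM over the 6 libraries), smooth muscle (1457 to 2310), endothelial (33.0 to 45.1) and enteric neuron and glia markers (6.1 to 8.6) had groups that overlapped. The part of these cell types in the mitosis values was not tested.

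**Figure D4:**
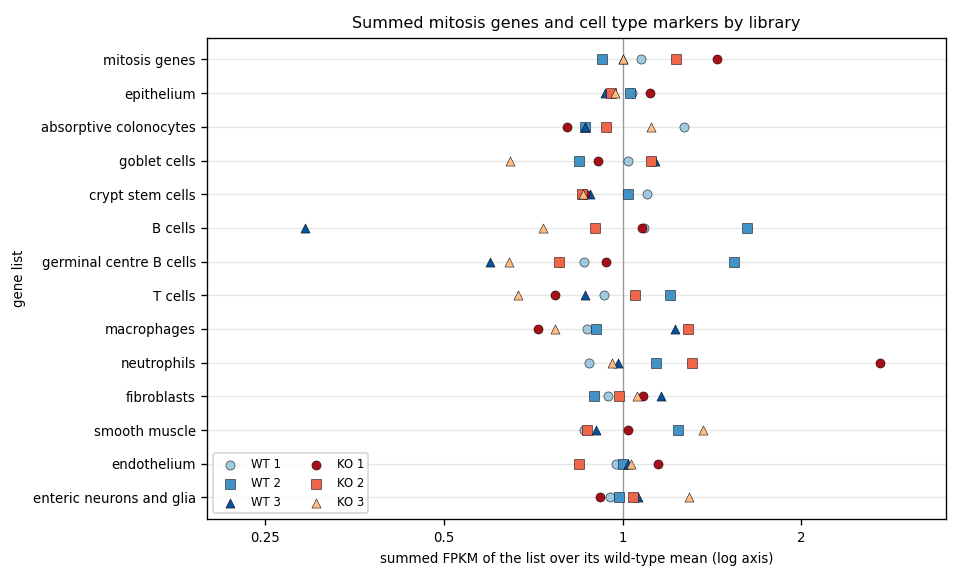
Summed FPKM of the mitosis genes and of 13 lists of cell type markers, each divided by its wild-type mean (log axis), with 1 point per library (WT wild type, KO ChREBP knockout). Knockout replicate 1 is rightmost for the mitosis genes (619 FPKM summed) and for the neutrophil (17.9 FPKM summed), epithelial and endothelial markers. The B cell point far to the left is wild-type replicate 3 at 22.3 FPKM.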

How the data were processed

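The authors deposited 1 table of FPKM values, 1 column per library; per the submitters' processing notes HISAT2, RSEM and mm39 were used, and tool versions and filters are not stated in the sources used here. The library protocol, per the labels' protocols, names no step that marks strand. Genes with 3 or more of the 6 libraries at 1 FPKM or above entered the fit, made on log2(FPKM + 1) by limma 3.58.1 under R 4.3.3 (mean-variance trend, two-sided, genotype as sole term), adjusted over 13247 genes at a threshold of 0.05. The fit was tested on simulated data with independent genes and changes larger than those of the 36 members. That test does not show how often differences as small as theirs would be called. Replicates are labelled as separate mice by the series design. Depth was estimated from FPKM steps in short non-coding genes (between 83.9% and 89.9% of 96 to 113 values per library within 0.05 of a whole read, with a length offset of 36 bases). The 36 members, the other lists and the motifs were chosen with earlier results of these data known. Named genes are the 36 members, the 2 of smallest p in each further mitosis list, the 3 of smallest p among replication genes, and Mlxipl. Ranges over libraries are used for marker lists. Single markers of neutrophils, macrophages, epithelium, absorptive colonocytes and crypt stem cells are also given, singled out after their values were seen. Symbols were matched through RefSeq (GRCm38.p6), from which only promoter coordinates of the printed sequences are given. Alternatives were 2 pseudocounts, 2 filters, 3 rescalings, 3 models of the spread, a replicate block and leaving out each library. Python 3.11.15, numpy 2.4.6, pandas 2.3.3 and matplotlib 3.10.9 were used.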

Additional observations from a re-analysis of the deposited data

How the results depend on the processing

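The 36 mitosis genes had 0 adjusted limma calls under each of the 17 alternatives, and the other 112 mitosis genes likewise. Between 34 and 36 of the 36 were positive, except that a mean of at least 5 FPKM left 29 genes to test, all 29 positive. The median log2 fold change of the 36 ranged from 0.12 to 0.35 when 1 library was left out and from 0.15 to 0.24 otherwise. Over all tested genes the count called by limma was 2, but 0 with a mean of at least 5 FPKM and 0 with the replicate block, and 0 to 1 with 1 library left out. Members at an unadjusted p under 0.05 numbered 1 to 20 with 1 library left out, and 8 with the replicate block. Of the other mitosis genes 42 were positive among genes with a mean of at least 5 FPKM, fewer of which were tested, and 75 to 90 with 1 library left out. Positive replication genes numbered 13 with array weights and 11 to 33 with 1 library left out; the cause was not tested. Bub1 turned to -0.031 with array weights. With 1 library left out Top2a ranged from -0.0046 to 0.29, Bub1 from -0.066 to 0.25 and Pttg1 from -0.060 to 0.17; no other member changed sign. The samples of the groups share only a replicate number: same-numbered deviations correlated at 0.27, -0.096 and 0.063, and 1 of 3 wild-type libraries correlated best with its own number. Depth limits Cdc25c most, at about 35 fragments in wild-type replicate 2.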
